A study of Mus musculus with 6 samples.

Results

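Cathepsins and legumain are mainly proteases of the lysosome, and 10 of their genes were followed here in the bone marrow of mice that express CDX2 in blood-forming cells. The genes were chosen by symbol: *Ctss*, *Ctsb*, *Ctsd*, *Ctsl*, *Ctsz*, *Ctsh*, *Ctsc*, *Ctsk*, *Ctse* and *Lgmn*. All 10 were matched among the 39179 genes of the count tables, and all 10 had enough reads to be tested. RNA-seq was performed on whole bone marrow from 6 littermate mice. *RsCDX2* mice carry the human *CDX2* coding sequence in the *Rosa26* locus behind a stop sequence flanked by loxP sites. *Mx1Cre* mice carry the Cre recombinase under the promoter of *Mx1*, a gene induced by interferon, so that deletion is not restricted to blood cells. The *MxCDX2* group held 3 *RsCDX2::Mx1Cre* mice, which carry both. The control group held 3 mice of different genotypes, an *RsCDX2* animal as control 1, an *Mx1Cre* animal as control 2 and a wild-type animal as control 3, so no genotype of the control group was replicated. All 6 mice were 3 months old when poly(I:C), a double-stranded RNA that induces interferon, was injected into the peritoneum 3 times at 10 µg/g, and RNA was prepared 6 weeks later. The question was which transcripts differed in the marrow once CDX2 had been induced.

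Cathepsins are made as inactive precursors, and most are carried to the lysosome on mannose 6-phosphate receptors and activated there at acid pH. Most are papain-type cysteine proteases, cathepsins D and E are aspartic proteases, and legumain is an asparaginyl endopeptidase that cuts after asparagine and matures other cathepsins. In marrow they are known from several cell types: cathepsin S from monocytes, macrophages and dendritic cells, where it trims the invariant chain of MHC class II molecules, cathepsin C from myeloid cells, where it activates the serine proteases of granules, cathepsin K from osteoclasts, where it degrades bone collagen, and cathepsin E from red cells and their precursors among others.

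The libraries held 38646101 to 49899650 reads on genes. *Cdx2* had 4, 0 and 0 reads in controls 1 to 3 and 152, 155 and 183 reads in the *MxCDX2* mice, in accord with the labels; reads of the human coding sequence are counted, if at all, on this mouse gene. In a principal component analysis the first component, with 61.0% of the variance, separated the groups, and the second, with 15.9%, set the wild-type control apart from the other 5 mice. Summed marker lists gave the same picture of that mouse: it held 9.92 times the megakaryocyte and platelet counts, 2.74 times the dendritic cell counts, 2.65 times the macrophage counts and 2.36 times the bone and stroma counts of the mean of the other control mice. Its values are therefore given beside each of the 10 genes, and calls of these genes that changed without it are given both ways. Fewer cells of a type and less RNA per cell cannot be told apart in bulk marrow, here and in all that follows.

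The promoters were compared before the values. RefSeq (GRCm38.p6) gave 8 start sites for 7 of the genes, and none was given for *Ctsb*, *Ctsh* and *Ctse*. The letters CACGTG, the E-box bound by the MiT/TFE factors of lysosomal genes, GAGGAAG or its reverse CTTCCTC, bound by the myeloid factor PU.1, and TTTATG or its reverse CATAAA, bound by CDX factors, were searched on both strands from 250 bases before to 50 bases after each start. No match overlapped another in these promoters. The 5 sequences shown are those of *Ctss* and *Ctsk*, neighbours whose values differed in direction, of *Ctsc*, which moved with *Ctss*, and of *Ctsd* and *Ctsl*, which held the E-box letters and did not rise. Each runs 5′ to 3′ on the gene's own strand from 250 bases before to 10 bases after the start, and capitals mark a match to the E-box or PU.1 letters.
Ctss (chr3:95526536-95526795, plus strand): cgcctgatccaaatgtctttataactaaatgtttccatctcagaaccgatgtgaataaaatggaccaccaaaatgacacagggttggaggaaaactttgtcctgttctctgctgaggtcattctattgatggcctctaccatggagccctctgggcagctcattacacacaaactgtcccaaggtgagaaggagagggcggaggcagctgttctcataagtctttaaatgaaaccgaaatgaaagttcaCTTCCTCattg
Ctsk (chr3:95498960-95499219, plus strand): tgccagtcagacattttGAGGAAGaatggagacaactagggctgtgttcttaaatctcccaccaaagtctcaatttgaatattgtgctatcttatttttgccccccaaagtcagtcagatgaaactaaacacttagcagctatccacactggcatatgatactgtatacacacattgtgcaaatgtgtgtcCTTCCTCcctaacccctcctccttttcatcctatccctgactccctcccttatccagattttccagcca
Ctsc (chr7:88277835-88278094, plus strand): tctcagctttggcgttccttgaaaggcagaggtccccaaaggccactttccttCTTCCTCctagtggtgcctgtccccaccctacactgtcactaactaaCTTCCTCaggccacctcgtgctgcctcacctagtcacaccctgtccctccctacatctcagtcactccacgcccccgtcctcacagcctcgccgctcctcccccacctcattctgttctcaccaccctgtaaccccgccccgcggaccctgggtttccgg
Ctsd (chr7:142387818-142388077, minus strand): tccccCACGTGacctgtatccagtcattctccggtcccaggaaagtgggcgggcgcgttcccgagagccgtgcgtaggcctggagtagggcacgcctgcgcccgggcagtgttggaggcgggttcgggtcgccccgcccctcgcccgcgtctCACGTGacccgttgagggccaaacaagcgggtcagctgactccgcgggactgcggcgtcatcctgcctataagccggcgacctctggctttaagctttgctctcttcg
Ctsl (chr13:64370511-64370770, minus strand): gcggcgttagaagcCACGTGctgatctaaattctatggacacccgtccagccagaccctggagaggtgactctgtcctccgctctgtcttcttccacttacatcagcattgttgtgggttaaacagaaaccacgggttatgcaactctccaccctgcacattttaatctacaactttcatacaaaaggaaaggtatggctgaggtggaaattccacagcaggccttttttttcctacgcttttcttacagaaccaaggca

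The PU.1 letters were found in *Ctsk* (233 and 59 bases before the start), *Ctsc* (197 and 150 bases before) and *Ctss*, where the match began 1 base before the start and ran across it. They were present in 13.6% of 32851 promoters of the same length. The E-box letters were found in *Ctsd* (245 and 98 bases before the start), *Ctsl* (236 bases before) and at 1 of the 2 starts of *Lgmn* (49 bases before), against 7.15% of all promoters. The CDX letters were in none of the 8 windows, against 11.9% of all promoters. A match is a description of the letters and not of binding.

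The quasi-likelihood test of edgeR was run on 15980 genes. A gene passed when its log2 fold change exceeded 1 in size and its Benjamini-Hochberg adjusted p lay below 0.05. Values after SE are standard errors. Of the 10 genes, 2 passed as higher in *MxCDX2* mice (*Ctss* and *Ctsc*), where 4.59% of all tested genes did, and 1 passed as lower (*Ctse*), where 9.03% did. By the adjusted p alone, 4 were higher (also *Ctsh* and *Ctsz*), against 9.91% of all genes, and 1 was lower, against 11.8%. All 3 *MxCDX2* mice lay above all 3 controls for these 4 genes and below them for *Ctse*, *Ctsd* and *Lgmn*. The groups overlapped for *Ctsb*, *Ctsl* and *Ctsk*. Over all tested genes, all 3 *MxCDX2* mice lay above the controls for 21.4% and below them for 20.7%. The median log2 fold change of the 10 genes was -0.40, and that of all tested genes was 0.00. Without the wild-type control, 4 genes passed as higher and 0 as lower, and the median was -0.08.

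**Figure D1:**
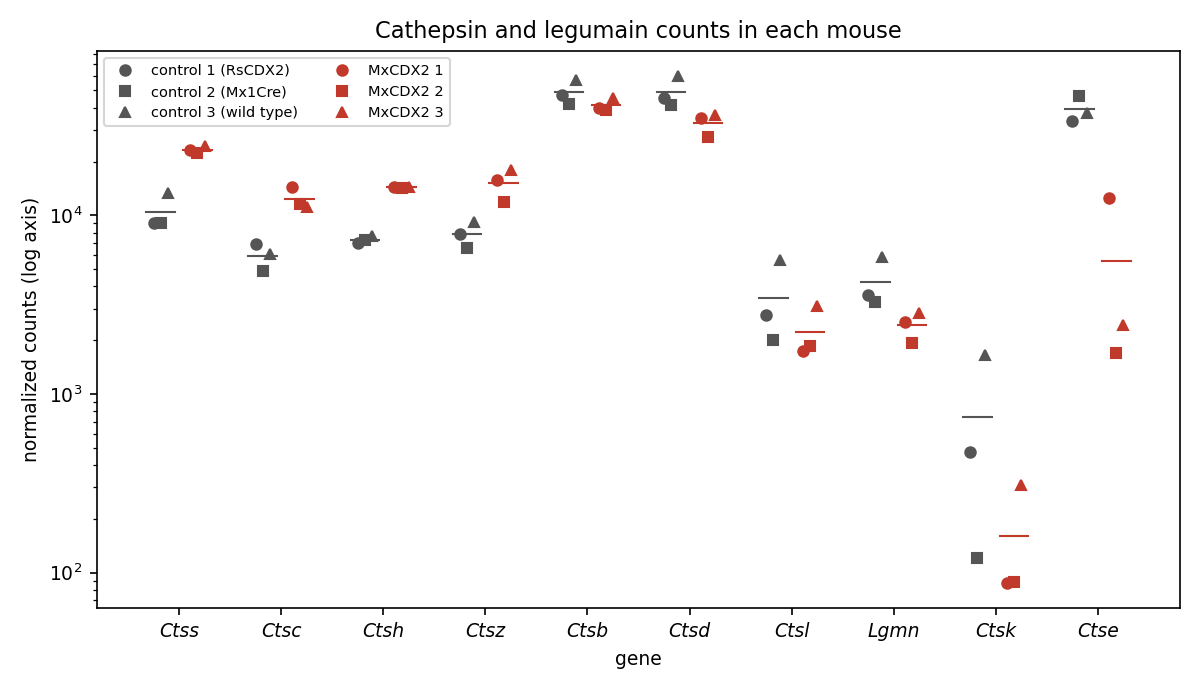
Normalized counts (log axis) of the 10 genes in each of the 6 mice, ordered by fold change. Grey symbols are controls, red symbols MxCDX2 mice, and short lines group means; the red points lie above all grey points for Ctss, Ctsc, Ctsh and Ctsz and below them for Ctsd, Lgmn and Ctse.

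*Ctss* rose in *MxCDX2* marrow. The gene lies on chromosome 3 (GRCm38, 95526786 to 95556403, plus strand). It had 9112, 9018 and 13326 normalized counts in controls 1 to 3 and 23160, 22388 and 24336 in the *MxCDX2* mice. The groups did not overlap, and the wild-type mouse was the highest control. The *MxCDX2* mice were also the more alike, with a coefficient of variation of 4.21% against 23.5% in controls. This was a 2.22-fold difference, at a log2 fold change of 1.15 (SE 0.18; adjusted p = 0.00690), and *Ctss* passed whichever mouse was left out, in 6 of 6 fits, at 1.05 to 1.38. It overlaps a processed pseudogene, *Hmgb1-ps5*, on the same strand over 557 bases.

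The genes of 3 exopeptidases were also higher in every *MxCDX2* mouse, and *Ctsc* passed both thresholds. *Ctsc* encodes dipeptidyl peptidase I, which removes pairs of residues from the amino end. On chromosome 7 (88278085 to 88310888, plus strand), it had 6931, 4848 and 6081 normalized counts in controls and 14366, 11595 and 11064 in *MxCDX2* mice. Each *MxCDX2* mouse lay above each control, and the wild-type mouse lay between the other controls. On the log2 scale the difference was 1.05 (SE 0.17; adjusted p = 0.00792). It fell under the fold threshold without control 2 (0.92) and without *MxCDX2* mouse 1 (0.93), and the adjusted p stayed below 0.05 in all 6 such fits. A lincRNA on the opposite strand, *Gm26522*, overlaps *Ctsc* over 4743 bases, and the strand setting of the counting was not stated in the sources used here.

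*Ctsh* encodes an aminopeptidase (chromosome 9, 90054152 to 90076089, plus strand). It had 6964, 7291 and 7637 normalized counts in controls and 14361, 14252 and 14493 in *MxCDX2* mice. This was the tightest pair of groups among the 10 genes, with coefficients of variation of 4.61% and 0.840%. Its log2 fold change was 0.98 (SE 0.09; adjusted p = 0.00191), so *Ctsh* passed by the adjusted p alone and missed the fold threshold. With 1 mouse left out the log2 fold change was 0.96 to 1.03, and both thresholds were passed only without the wild-type mouse. *Ctsz* encodes a carboxypeptidase that removes single residues (chromosome 2, 174427493 to 174439039, minus strand). It had 7877, 6588 and 9186 normalized counts in controls and 15753, 11929 and 17953 in *MxCDX2* mice. *MxCDX2* mouse 2 was the lowest of its group and still above all controls. The difference was 0.95 on the log2 scale (SE 0.19; adjusted p = 0.0168), and it exceeded 1 without the wild-type mouse (1.09) and without *MxCDX2* mouse 2 (1.10). Without *MxCDX2* mouse 3 the adjusted p was 0.0649.

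Markers of monocytes moved with these 4 genes. Of 8 monocyte markers, 5 passed as higher (*Csf1r*, *Ly6c2*, *Ccr2*, *F13a1* and *Ms4a6c*), and *F13a1*, the coagulation factor XIII A chain of monocytes, had the largest log2 fold change of 3.06. The summed list had 46600 to 80796 normalized counts in controls and 289160 to 337580 in *MxCDX2* mice. None of the 8 had counts near 0. In controls the wild-type mouse had the lowest sum of this list while it had the highest *Ctss*. The neutrophil list went the other way. Of its 9 markers 6 passed as lower (4 to 9 with 1 mouse left out) and 0 as higher. Its sum was 1318100 to 2172300 normalized counts in controls and 580550 to 792300 in *MxCDX2* mice. The list does not separate stages of neutrophils, and the study's cytometry found that immature neutrophils expanded. Of 7 dendritic cell markers 2 passed as lower (0 to 2 with 1 mouse left out) and 0 as higher. Without the wild-type mouse *Clec9a* passed as higher. The median log2 fold change of this list was -0.43 with all mice and 0.49 without the wild-type mouse. The sums of the list overlapped, at 7689 to 22949 in controls and 6697 to 7920 in *MxCDX2* mice. The part of monocyte, neutrophil or dendritic cell number in the values of *Ctss*, *Ctsc*, *Ctsh* and *Ctsz* was not tested.

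*Ctsb* encodes cathepsin B, which acts both as an endopeptidase and as a carboxydipeptidase (chromosome 14, 63122462 to 63145923, plus strand). It had 47256, 41923 and 57199 normalized counts in controls and 39985, 38840 and 45350 in *MxCDX2* mice. The groups overlapped, since *MxCDX2* mouse 3 exceeded control 2. *Ctsb* did not pass, at a log2 fold change of -0.24 (SE 0.17; adjusted p = 0.366), which ran from -0.34 to -0.09 with 1 mouse left out. *Fdft1* overlaps *Ctsb* on the opposite strand over 774 bases.

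*Ctsl* and *Ctsk* encode endopeptidases, cathepsin L of many cell types (chromosome 13, 64359337 to 64370890, minus strand) and cathepsin K of osteoclasts (chromosome 3, 95499256 to 95509362, plus strand). *Ctsl* had 2767, 1994 and 5594 normalized counts in controls and 1748, 1848 and 3090 in *MxCDX2* mice, at -0.63 on the log2 scale (SE 0.41; adjusted p = 0.321). The groups overlapped, and the wild-type mouse had 2.35 times the mean of the other controls. Leaving that mouse out brought the value to -0.08. *Ctsk* had 473, 121 and 1645 normalized counts in controls and 87.9, 88.2 and 307 in *MxCDX2* mice. *MxCDX2* mouse 3 exceeded control 2, and the wild-type mouse had 5.54 times the mean of the other controls, the highest such ratio of the 10 genes. *Ctsk* did not pass, at a log2 fold change of -2.21 (SE 0.97; adjusted p = 0.153), and at -0.86 once the wild-type mouse was left out.

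*Ctsk* and *Ctss* are neighbours. On chromosome 3, *Ctsk* ends 17.4 kb before *Ctss* begins on the same strand. Per length, *Ctss* was 9.02 to 82.9 times *Ctsk* in controls and 88.2 to 293 times in *MxCDX2* mice, so the ratio was higher in each *MxCDX2* mouse than in each control. Of 10 osteoclast markers, 8 were tested and 2 passed as lower, *Acp5* (log2 fold change -2.79), the tartrate-resistant phosphatase of osteoclasts, and *Mmp9* (-1.51), a gelatinase that neutrophils also make. The summed list had 85728 to 149590 normalized counts in controls and 31998 to 51558 in *MxCDX2* mice. Most of it was *Mmp9* and the platelet integrin *Itgb3*, and the defining markers *Calcr* and *Ocstamp* had at most 4.56 and 30.1 normalized counts in any mouse. The bone and stroma list, highest in the wild-type mouse, had 15342 to 56899 normalized counts in controls and 7818 to 17063 in *MxCDX2* mice, with 1 of 8 markers passing as lower (*Cxcl12*, -1.81). Of all tested genes, 9.03% passed as lower. *Cxcl12* passed in 1 of the 6 fits with 1 mouse left out, not without the wild-type mouse, and not with total counts. With the replicate block 4 osteoclast markers passed as lower, also *Dcstamp* and *Oscar*, and 3 of the bone and stroma list, also *Col1a2* and *Lepr*. The part of these cells in the *Ctsk* and *Ctsl* values was not tested.

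**Figure D2:**
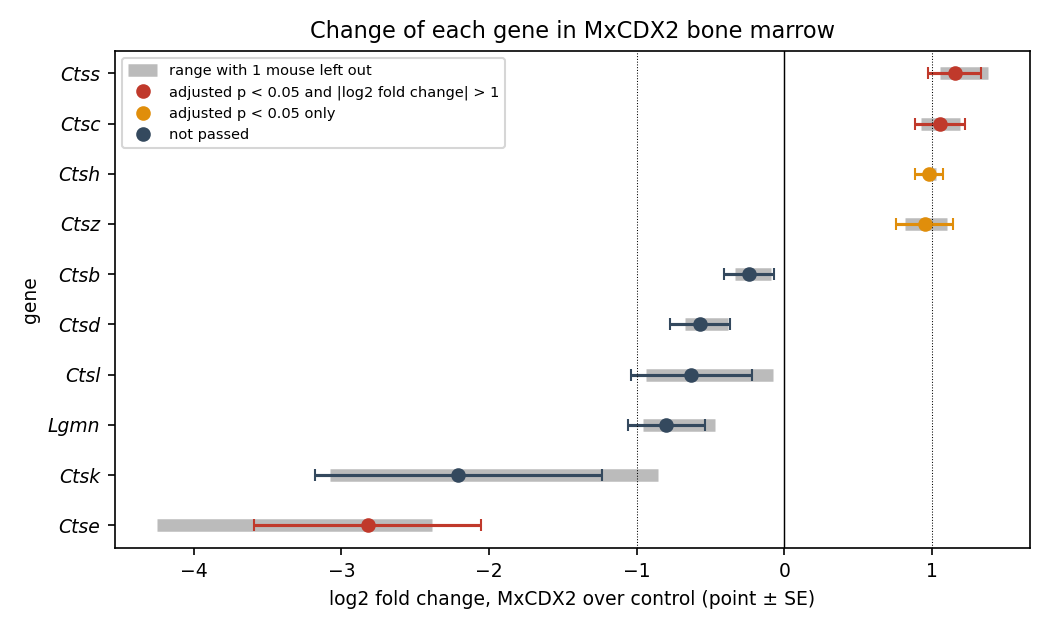
Log2 fold change of each gene in MxCDX2 over control mice (points, with the standard error as bars), and the range over the 6 fits that left out 1 mouse (grey bands). Dotted lines mark log2 fold changes of -1 and 1; the bands of Ctss stay above 1, and those of Ctsk and Ctse are the widest.

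The aspartic proteases were both lower in every *MxCDX2* mouse, and 1 of them passed. *Ctsd* encodes cathepsin D, which has a broad substrate range in the lysosome. On chromosome 7 (142375911 to 142388038, minus strand), it had 45249, 41672 and 60183 normalized counts in controls and 35075, 27301 and 36622 in *MxCDX2* mice. The groups did not overlap, but *Ctsd* did not pass, at -0.57 on the log2 scale (SE 0.20; adjusted p = 0.0904), and it was -0.38 without the wild-type mouse.

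*Ctse* fell in *MxCDX2* marrow, with a large spread. It lies on chromosome 1 (131638306 to 131675505, plus strand). It had 33797, 46787 and 37449 normalized counts in controls and 12560, 1703 and 2422 in *MxCDX2* mice. All 3 *MxCDX2* mice lay below all controls, and *MxCDX2* mouse 1 stood above the other 2, which gave that group a coefficient of variation of 109%. The mean was 7.08-fold lower, a log2 fold change of -2.82 (SE 0.77; adjusted p = 0.0426). Without *MxCDX2* mouse 1 it was -4.25 (adjusted p = 0.00181), and in each of the other 5 fits with 1 mouse left out the adjusted p was above the threshold, at 0.0608 to 0.124.

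Erythroid markers moved with *Ctse*. All 11 passed as lower, led by the alpha-globin gene *Hba-a1* at -4.24, and 7 of the 11 passed without *MxCDX2* mouse 3. Their sum was 1828500 to 2167600 normalized counts in controls and 209910, 55185 and 111140 in *MxCDX2* mice 1 to 3, so the mouse with the highest *Ctse* of its group also had the highest erythroid sum. None of these markers had counts near 0. In the B cell list 4 of 7 markers passed as lower, 1 with the replicate block and 0 to 6 with 1 mouse left out. Its sum was 17887 to 46204 normalized counts in controls and 12651, 3915 and 8903 in *MxCDX2* mice 1 to 3, so that mouse 1 was again the highest and mouse 2 the lowest of the group. The part of erythroid or B cell number in the fall of *Ctse* was not tested.

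*Lgmn* encodes legumain (chromosome 12, 102394084 to 102439813, minus strand). It had 3575, 3262 and 5874 normalized counts in controls and 2530, 1923 and 2854 in *MxCDX2* mice. Each *MxCDX2* mouse lay below each control, and the wild-type mouse was at 1.72 times the mean of the other controls. It did not pass, at -0.80 on the log2 scale (SE 0.26; adjusted p = 0.0710). With the replicate number as a block the adjusted p was 0.0220 at a log2 fold change of -0.77, and with DESeq2 it was 0.0355. With the wild-type mouse left out its log2 fold change was -0.47.

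Most macrophage markers were lower beside *Lgmn*, *Ctsd* and *Ctsl*. Of 13, 8 passed as lower, and the lowest log2 fold change was that of *Cd5l*, a secreted protein of tissue macrophages, at -3.47. Left-out mice changed this number to 0 without *MxCDX2* mouse 2, 2 without mouse 1, 3 without mouse 3 and 6 to 9 without a control. *Adgre1*, the F4/80 antigen, went the other way (0.75, adjusted p = 0.0850) and passed as higher without the wild-type mouse, and *Mrc1*, the mannose receptor, was at 0.01. The summed list had 47000, 43860 and 120260 normalized counts in controls 1 to 3 and 24847 to 32184 in *MxCDX2* mice. None of the 13 had counts near 0. The order of the controls in this list, with the wild-type mouse highest and control 2 lowest, was also that of *Ctsb*, *Ctsd*, *Ctsl*, *Lgmn* and *Ctsk*, and of *Ctss* and *Ctsz*. The part of macrophage number in these values was not tested.

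**Figure D3:**
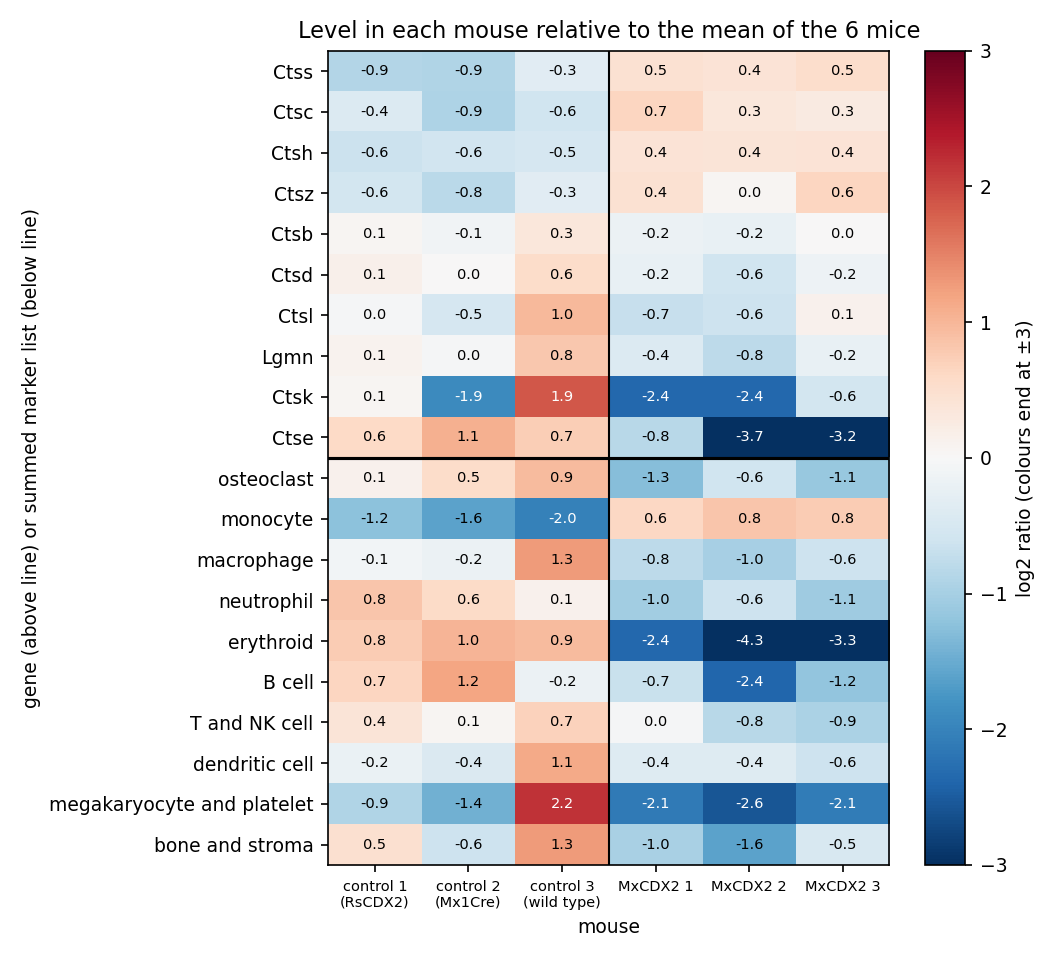
Normalized counts of the 10 genes (above the line) and of summed marker lists (below it) in each mouse, as log2 ratios to the mean of the 6 mice; colours end at -3 and 3. The wild-type control stands above the other controls in Ctsk, Ctsl and Lgmn as in the macrophage, bone and megakaryocyte lists, and Ctse is low where the erythroid list is low.

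Levels were compared between genes as reads per kilobase of exon scaled to library size (RPKM), as a description. In controls the mean level was highest for *Ctsd* at 459 ± 91.9 RPKM (SD, n = 3), followed by *Ctse* at 273 ± 46.5 RPKM, *Ctsb* at 177 ± 28.2 RPKM, *Ctss* at 170 ± 39.9 RPKM and *Ctsz* at 120 ± 19.8 RPKM. *Lgmn* (40.1 RPKM), *Ctsh* (35.7 RPKM) and *Ctsc* (22.5 RPKM) were lower, and *Ctsl* and *Ctsk* were lowest, at 11.7 and 10.9 RPKM. The ranges of the control mice overlapped between the neighbours *Ctsb* and *Ctss*, *Lgmn* and *Ctsh*, *Ctsc* and *Ctsl*, and *Ctsl* and *Ctsk*.

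In *MxCDX2* mice *Ctss* had the highest level, 377 ± 15.9 RPKM (SD, n = 3), and it ranked first in all 3 mice. *Ctsd* followed at 309 ± 46.7 RPKM, *Ctsz* at 232 ± 46.5 RPKM, *Ctsb* at 150 ± 12.6 RPKM, *Ctsh* at 70.2 ± 0.590 RPKM, *Ctsc* at 46.7 ± 6.71 RPKM, *Ctse* at 38.6 ± 42.1 RPKM and *Lgmn* at 23.1 ± 4.48 RPKM. *Ctsl* and *Ctsk* remained at the bottom, at 7.55 and 2.34 RPKM. Ranges overlapped between *Ctsd* and *Ctsz*, *Ctsc* and *Ctse*, and *Ctse* and *Lgmn*. The ratio of *Ctss* to *Ctsd* levels was 0.349 to 0.383 in controls and 1.14 to 1.42 in *MxCDX2* mice.

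The 10 levels summed to 1207 to 1546 RPKM in controls and 1092 to 1347 RPKM in *MxCDX2* mice, which overlap, while the make-up differed. *Ctss* held 12.1% to 13.96% of the sum in controls and 28.2% to 33.2% in *MxCDX2* mice, and *Ctse* 16.8% to 26.9% and 1.08% to 6.54%. *Ctsz* held 8.34% to 9.95% and 16.7% to 20.3%. *Ctsd* held 32.3% to 36.4% and 23.4% to 25.4%. With the length of the longest or the principal transcript in place of all exons, *Ctsd* stayed first by mean in controls, in 2 of 3 mice, and *Ctss* first in all 3 *MxCDX2* mice. The ranks of *Ctsh*, *Ctsc* and *Lgmn* changed, among others: by these lengths the control level of *Ctsh* was 58.5 or 99.3 RPKM and that of *Ctsc* 40.7 or 52.5 RPKM.

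**Figure D4:**
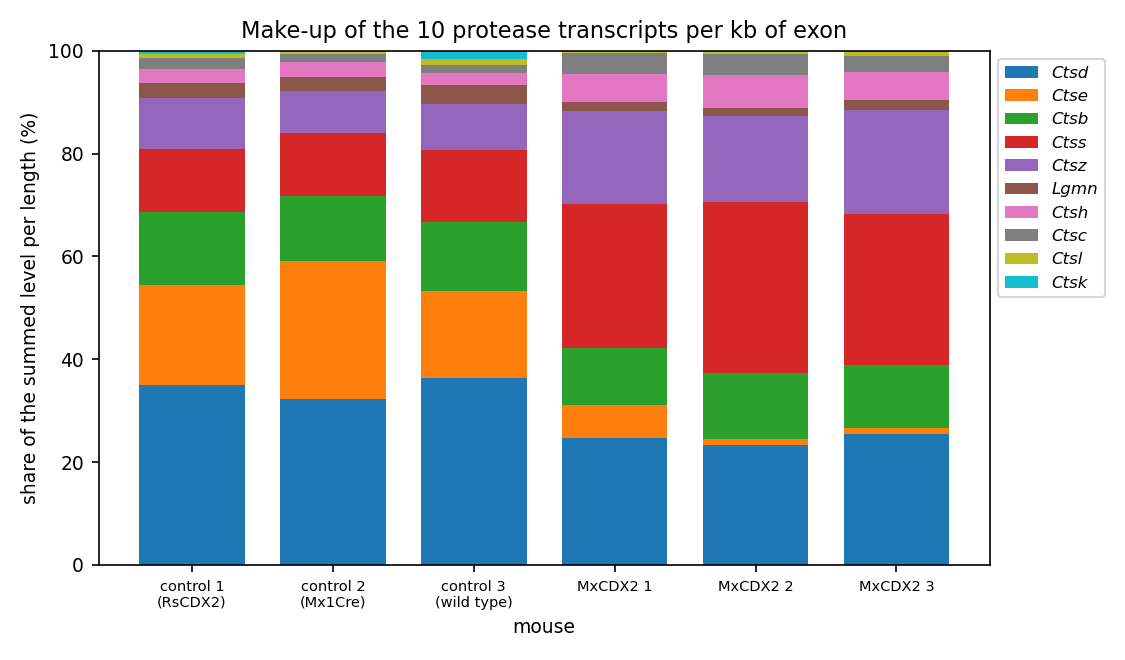
Share of each gene in the summed level per length (RPKM) of the 10 genes, in percent, 1 bar per mouse. Ctsd and Ctse fill the lower part of the control bars, and Ctss and Ctsz take a larger share in each MxCDX2 bar.

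Other cathepsins gave 5 tested genes of 14. *Ctsg*, a serine protease of myeloid granules, passed as higher, with a log2 fold change of 2.32 (3612 to 17330 normalized counts in controls and 49160 to 60060 in *MxCDX2* mice). *Ctsf*, a papain-type cathepsin, passed as lower at -1.86 and in all 6 fits with 1 mouse left out. *Ctsa*, a carboxypeptidase, passed by the adjusted p alone, at 0.81. The other 9, among them the rodent placental cathepsins, had at most 2 reads in any mouse. *Ctsg* is also 1 of 5 listed substrates of cathepsin C. The other 4 substrates did not pass, with log2 fold changes of -0.31 for *Elane*, 0.78 for *Prtn3*, -1.16 for *Gzma* and 0.10 for *Gzmb*. *Ctsg*, *Elane* and *Prtn3* were lowest among controls in the wild-type mouse, and *Ctsg* passed in 2 of the 6 fits with 1 mouse left out.

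Of the inhibitors, 8 cystatins and stefins were tested and 1 passed as higher, *Cst3*, the secreted cystatin C, at a log2 fold change of 1.00, and in 2 of the 6 fits with 1 mouse left out. *Cst3* did not pass with DESeq2 size factors or with at least 10 counts in every mouse as the filter. *Cst7* had a larger log2 fold change of 1.14 but did not pass (adjusted p = 0.0599). It passed as higher in DESeq2, with total counts, with 1 count in any mouse as the filter, and without control 1. *Cstb*, the cytosolic stefin B, passed by the adjusted p alone at 0.68. The median log2 fold change of the list was 0.68. The stefin A genes are near-identical copies, whose reads the counting could split or drop, so their values are uncertain.

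Genes of other lysosomal hydrolases and of lysosomal cofactors passed in 1 direction. Of all tested genes, 4.59% passed as higher, and 9.91% were higher by the adjusted p alone. Of 22 glycosidases, lipases and sulfatases, 5 passed as higher, and 13 were higher by the adjusted p alone. The median log2 fold change of this list was 0.67. The highest log2 fold change among these 22 genes was that of *Hexa*, a hexosaminidase subunit (1.26). Of 10 other lysosomal peptidases and cofactors, 3 passed as higher, and 8 were higher by the adjusted p alone, with a median of 0.81. The 3 were *Npc2*, which carries cholesterol out of the lysosome (1.34), *Psap*, the precursor of the saposins (1.25), and *Scpep1*, a serine carboxypeptidase (1.22). Without the wild-type mouse these counts were 6 of 22 and 5 of 10, and *M6pr* and *Cd68*, of the sorting and membrane lists, also passed as higher.

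Of 14 lysosomal membrane proteins, 1 passed as higher, *Lamp1* (1.04, in 4 of the 6 fits with 1 mouse left out), and by the adjusted p alone 8 were higher and 2 lower, the latter *Cd63* (-0.84) and *Slc11a1* (-0.94). The vacuolar proton pump, which acidifies the lysosome, had a median log2 fold change of 0.06 over 18 genes. Its subunit *Atp6v1b2* passed as higher (adjusted p = 0.00317) and *Atp6v0a1* as lower (-1.30), and by the adjusted p alone only *Atp6v1a* joined them, as higher at 0.63. With 1 mouse left out *Atp6v0a1* passed in 6 fits and *Atp6v1b2* in 4. Of 9 genes that sort lysosomal enzymes, *Gnptab*, which starts the mannose 6-phosphate tag, passed as higher (1.25) and *Igf2r*, the cation-independent receptor of that tag, as lower (-1.08). *M6pr*, the cation-dependent receptor, was higher by the adjusted p alone, at 0.99. *Igf2r* passed in 1 of the 6 fits with 1 mouse left out.

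Of 4 MiT/TFE factors, *Tfec* (2.08) and *Mitf* (1.90) passed as higher, in all 6 fits with 1 mouse left out. *Mitf* had 256 to 345 normalized counts in controls and 913 to 1254 in *MxCDX2* mice. *Tfeb* and *Tfe3*, which are known to drive lysosomal genes, had log2 fold changes of 0.05 and 0.06. None of 7 invariant chain and class II genes passed in either direction in edgeR, by the adjusted p alone either. With the replicate block *H2-DMa* passed as higher. *H2-DMa* alone (0.92) had an unadjusted p below 0.05, and 1 of the 7 had an adjusted p below 0.05 in DESeq2, without passing the fold threshold there. Their median log2 fold change was -0.48, and the largest difference in size was that of *H2-DMa* (adjusted p = 0.102). Without the wild-type mouse *H2-DMa* and *H2-DMb1*, which load peptides onto class II molecules, passed as higher. The groups overlapped in the sum of this list, at 75684 to 160430 normalized counts in controls and 50349 to 114890 in *MxCDX2* mice. Counted once each, 101 genes of all these lists were tested, and 15 passed as higher and 3 as lower. Of all tested genes 4.59% passed as higher and 9.03% as lower.

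**Figure D5:**
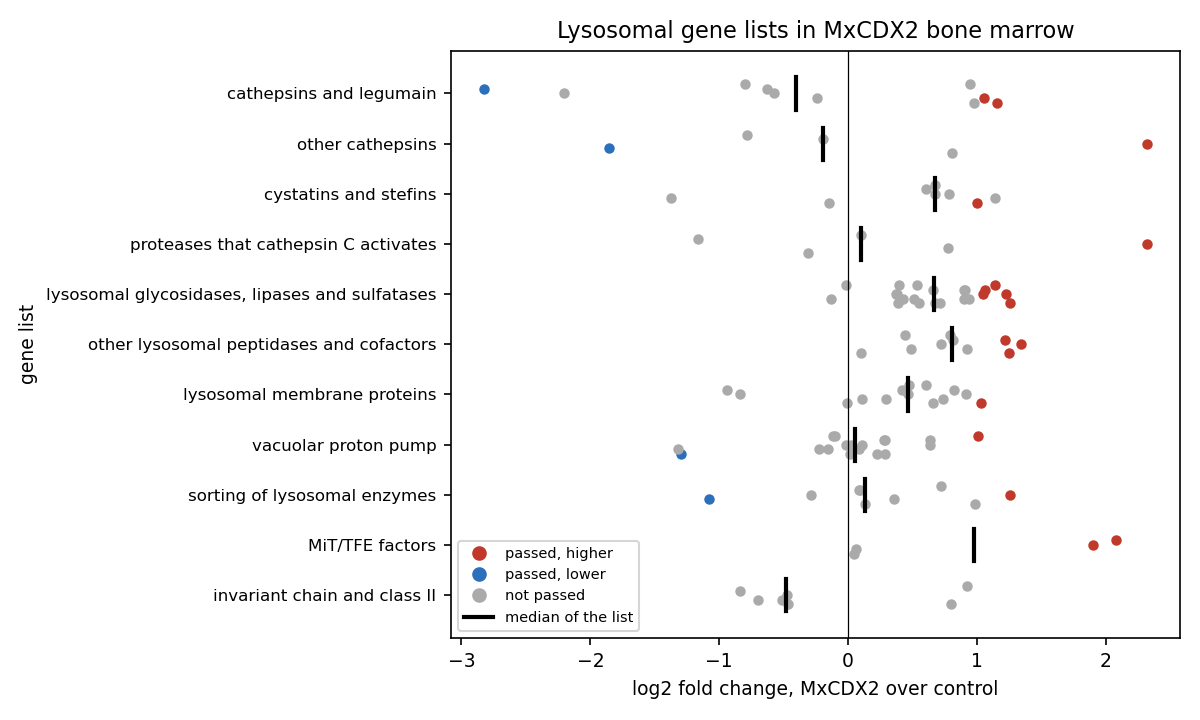
Log2 fold change of each tested gene in the 10 cathepsin and legumain genes and 10 lists of lysosomal genes. Red and blue points passed the adjusted p and the fold threshold as higher or lower, grey points did not, and black bars are list medians. Medians are 0.67 for the glycosidases, lipases and sulfatases, 0.81 for the other peptidases and cofactors, and 0.06 for the proton pump.

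The genes whose pattern over the 6 mice was most like each of the 10 were found among 11982 genes by Pearson correlation of log2 normalized counts. These correlations rest on 6 mice that share the difference between the groups and the wild-type mouse, and the best of so many genes is high in any case. The nearest genes were *Hpse* for *Ctss* (r = 0.999), *Uso1* for *Ctsc* (0.999), *Kyat3* for *Ctsh* (0.999) and *Plaa* for *Ctsz* (0.998). For *Ctsd* and *Lgmn* they were *C1qa* (0.997) and *C1qc* (0.998), subunits of complement C1q and both on the macrophage list. *Lhfp* was nearest to *Ctsl* (0.998), *Mtmr12* to *Ctsb* (0.993), *Col4a2*, a collagen of basement membranes, to *Ctsk* (0.994), and *1810013L24Rik* to *Ctse* (0.996).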

How the data were processed

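RNA-seq of bone marrow was analysed in 6 mice, 3 per group. The authors aligned reads with STAR (2.5) to GRCm38, counted them per gene with HTSeq (0.6.1), and deposited raw counts for each mouse without normalization; the library kit was stranded, and the strand setting of the counting is not given in the sources used here. Reads on no feature (9.22% to 14.1% of reads) and ambiguous reads (2.99% to 3.16%) were left out. Groups and replicate numbers came from the labels, and control genotypes as well. The counting precision is set by 38646101 to 49899650 reads per mouse, and no 2 mice of a group agreed within sampling noise.

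The tests were run in edgeR 4.0.16 under R 4.3.3 (TMM, filterByExpr, glmQLFit, glmQLFTest), on all 6 mice with group as the only term, with Benjamini-Hochberg adjustment over 15980 genes. The thresholds were those of the study's methods. Normalized counts are TMM-scaled. Standard errors were derived from the F statistic. RPKM used the union of exons in GENCODE M21 (GRCm38), which also gave symbols for 37607 of 39179 identifiers and positions; promoters were from RefSeq. The code was tested on simulated data. The 10 genes and all lists were chosen with earlier results of these data known. Named were the 10 genes, in each list the passing gene with the highest and the lowest log2 fold change, otherwise the largest absolute change, markers near 0, and the most similar gene; other genes were named after their values were seen, where a count was small or another gene of the same function was described. Alternatives were DESeq2 1.42.0, DESeq2 size factors, total counts, 2 other low-count filters (at least 1 count in any mouse, at least 10 in every mouse), no fold threshold, glmTreat at a log2 fold change of 1, a block for the replicate number, each mouse left out, and other transcript lengths, of which the principal transcript was added after seeing the data.

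Same-numbered mice deviated together from their group means (r = 0.170, 0.286 and 0.182, against -0.328 to 0.103 for other pairs). Whether the numbers pair the mice is not known. A block for the number was therefore run as an alternative, and the main test did not use it. Any pairing would rest only on these correlations and on numbers in titles and descriptions. All 6 mice were littermates, and no shared handling of a number is stated.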

Additional observations from a re-analysis of the deposited data

How the results depend on the processing

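Against 2 genes passing as higher, 1 as lower and 2177 over all genes, total counts without TMM gave 4 higher, and shifted the median of all genes to 0.12. No fold threshold gave 4 higher and 3471 over all genes. The test against a log2 fold change of 1 gave 0 higher, 0 lower and 611 over all genes. With 1 mouse left out the numbers were 1 to 4 higher, 0 to 1 lower and 1205 (without *MxCDX2* mouse 3) to 2406 over all genes. With the replicate block 2 passed as higher, 1 as lower and 2205 over all genes; apart from *Lgmn* by the adjusted p alone, the block changed no call of the 10 genes. No log2 fold change of the 10 genes changed sign in any alternative, and of 140 gene and setting pairs 122 kept their call, 8 gained and 10 lost it. With 1 count in any mouse as the filter *Ctsh* passed as well, just above a log2 fold change of 1. Of the list counts, 109 moved by more than 1.5 times or to or from 0, and 451 stayed within 1.5 times; the causes were not tested. With 3 mice per group, and 3 genotypes among the controls, 1 mouse decides several calls. The lowest of the 10 genes, *Ctsk*, had 83 to 1804 reads per mouse.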
